A study of Homo sapiens with 12 samples.

Results

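The AP-1 set measured here comprised the genes of the Jun proteins JUN, JUNB and JUND, of the Fos proteins FOS, FOSB, FOSL1 and FOSL2, and of the related factors ATF3 and MAFF. The members were taken by gene symbol alone, which found 9 of 9 among the 27814 named genes of the count table. Of these, 8 passed the filter on low counts and were tested, while FOSL1 did not pass and is given as counts only.

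AP-1 is a transcription factor made of pairs of proteins that join through a leucine zipper and bind DNA through the basic stretch beside it, a fold called bZIP. Fos proteins cannot pair with each other and need a Jun partner, whereas Jun proteins also pair among themselves and with ATF proteins. Pairs of Jun and Fos proteins favour a short palindrome, the TPA-response element, and pairs of Jun and ATF proteins favour the longer cyclic AMP-response element (CRE). Several of these genes are immediate-early genes, switched on within minutes by growth factor signalling through the ERK and JNK kinases, and their mRNAs are short-lived. In breast cancer cells AP-1 acts downstream of HER2 and other growth factor receptors and binds many of the enhancers used by the oestrogen receptor.

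The cells were BT474, an established human breast cancer line that carries HER2 amplification and hormone receptors. The 4 groups, with 3 libraries each, were KO-labelled cells in 200 nM neratinib, parental cells in 200 nM neratinib, KO-labelled cells in DMSO and parental cells in DMSO. KO-labelled cells are those labelled BRD8 KO, BRD8 being a bromodomain protein of the TIP60 histone acetyltransferase complex, and parental cells carry no label of an edit. Neratinib, an irreversible inhibitor of the HER2 and EGFR kinases, was given for 4 h, and DMSO is its solvent. All groups were grown in RPMI medium with serum. The labels leave unsaid where BRD8 was edited and whether KO-labelled cells were a clone or a pool. Nothing states that the 3 libraries of a group were separate cultures, and p-values therefore rest on a spread that may be technical.

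Library totals over named genes were 33272182 to 41431203 counts in KO-labelled neratinib, 32471198 to 44462918 in parental neratinib, 33468512 to 44726160 in KO-labelled DMSO and 38301779 to 41064117 in parental DMSO libraries. BRD8 mRNA, counted over the whole gene, was at 156.1 ± 2.44 CPM in KO-labelled and 235.6 ± 5.23 CPM in parental cells in neratinib (SD, n = 3 each), and at 67.4 ± 1.39 CPM in KO-labelled and 64.1 ± 0.706 CPM in parental cells in DMSO. In DMSO the labelled knockout thus had no less BRD8 mRNA than parental cells, and gene counts cannot show a small edit, so directions below are those of the libraries as labelled. All 11 luminal markers listed, ERBB2, ESR1 and GATA3 among them, were above 1 CPM in every group. Their sum was 16498 to 16764 CPM in KO-labelled and 16335 to 16542 in parental neratinib libraries. In DMSO it was 18662 to 18977 in KO-labelled and 17591 to 17787 in parental libraries. In that order ERBB2 was at 8433, 9138, 8877 and 8176 CPM. Some differed more, with GATA3 at 171.4, 389.3, 249.7 and 434.5 CPM and KRT19 at 778.6, 761.7, 2288 and 2174 CPM. Of 7 fibroblast and mesenchymal markers, 2 or 3 were above 1 CPM in a group, and their sum was 184 to 188 CPM in KO-labelled neratinib, 134 to 137 in parental neratinib, 117 to 125 in KO-labelled DMSO and 92.1 to 97.6 in parental DMSO libraries. In that order of groups VIM was at 71.73, 44.88, 34.61 and 21.78 CPM, and COL1A1 at 113.9, 90.55, 82.59 and 72.74 CPM. PDGFRB and LUM were at 0 in both parental groups. Of 8 blood and endothelial markers, 2, VWF and CD68, were above 1 CPM in every group. The sums of the 8 were 43.3 to 47.3, 20.4 to 22.6, 38.1 to 39.5 and 15.4 to 16.2 CPM in the same order of groups. VWF was at 38.09, 14.69, 32.94 and 11.94 CPM and CD68 at 6.567, 6.284, 5.13 and 3.676 CPM. CD3E was at 0 in all but KO-labelled neratinib libraries. The part of these markers in the results below was not tested.

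The promoter windows of JUN, JUND, FOSL2 and FOS are shown because they hold the letters of the elements that AP-1 and CREB/ATF proteins bind, and because JUN, JUND and FOSL2 rose and FOS fell with neratinib. Each runs from 250 bases before to 50 bases after the RefSeq start site (GRCh38.p14), on the gene's own strand, with matches to the searched motifs in capitals. The JUN window is chr1:58783998-58784297 (minus strand), the JUND window chr19:18281573-18281872 (minus strand), the FOSL2 window chr2:28392608-28392907 (plus strand) and the FOS window chr14:75278578-75278877 (plus strand).
JUN: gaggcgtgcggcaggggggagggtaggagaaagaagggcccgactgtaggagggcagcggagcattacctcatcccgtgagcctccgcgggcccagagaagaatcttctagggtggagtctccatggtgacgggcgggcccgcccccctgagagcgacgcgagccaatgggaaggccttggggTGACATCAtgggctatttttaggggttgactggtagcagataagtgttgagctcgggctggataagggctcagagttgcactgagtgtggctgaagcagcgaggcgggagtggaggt
JUND: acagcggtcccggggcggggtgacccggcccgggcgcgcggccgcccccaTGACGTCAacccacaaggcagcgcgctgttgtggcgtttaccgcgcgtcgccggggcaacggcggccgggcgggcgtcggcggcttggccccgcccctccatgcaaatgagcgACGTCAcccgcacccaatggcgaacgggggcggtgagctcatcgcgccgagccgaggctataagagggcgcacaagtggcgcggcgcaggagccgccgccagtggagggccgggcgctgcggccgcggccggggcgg
FOSL2: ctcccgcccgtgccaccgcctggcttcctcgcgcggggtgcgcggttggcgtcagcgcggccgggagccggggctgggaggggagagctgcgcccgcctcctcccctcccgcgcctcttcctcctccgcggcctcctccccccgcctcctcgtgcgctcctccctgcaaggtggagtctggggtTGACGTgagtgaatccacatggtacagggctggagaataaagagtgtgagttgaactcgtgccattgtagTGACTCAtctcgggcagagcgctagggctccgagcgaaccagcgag
FOS: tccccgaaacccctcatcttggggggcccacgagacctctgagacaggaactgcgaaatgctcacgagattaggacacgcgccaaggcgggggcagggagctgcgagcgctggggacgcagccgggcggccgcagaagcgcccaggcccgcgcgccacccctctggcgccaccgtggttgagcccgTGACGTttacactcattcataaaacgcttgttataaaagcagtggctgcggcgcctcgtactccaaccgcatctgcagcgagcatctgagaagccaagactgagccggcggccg

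The motifs were searched on both strands as TGANTCA (the TPA-response element), TGACNTCA (the CRE and its JUN variant) and TGACGT (the CRE core, which overlaps TGACNTCA where N is G), along with the CArG box bound by SRF. The JUN window held TGACATCA at position -67, counted from the start site. In the JUND window TGACGTCA stood at -200 and the core again, as ACGTCA, at -87. The FOSL2 window held TGACTCA at position 5, with the start site counted as 1, and TGACGT at -66. The FOS window held TGACGT at -64. Of the other members, FOSB held TGACGT at -60, MAFF TGACGTCA at -54 of its first listed start, and ATF3 TGACATCA at -123 of its first listed start, while the JUNB window and the other windows of ATF3 and MAFF had no match. Over the 10 member windows, which cover 8 of the 9 genes, 4 held TGACNTCA, 5 held TGACGT, 1 held TGANTCA and 0 held the CArG box. Among all 35116 RefSeq windows of this length the shares were 7.72%, 7.98%, 7.71% and 1.29% in the same order. Bases farther than 250 before the start site were not searched, so a CArG box or other element there would not be seen. A match is a string of letters and not a measured binding site.

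**Figure D1:**
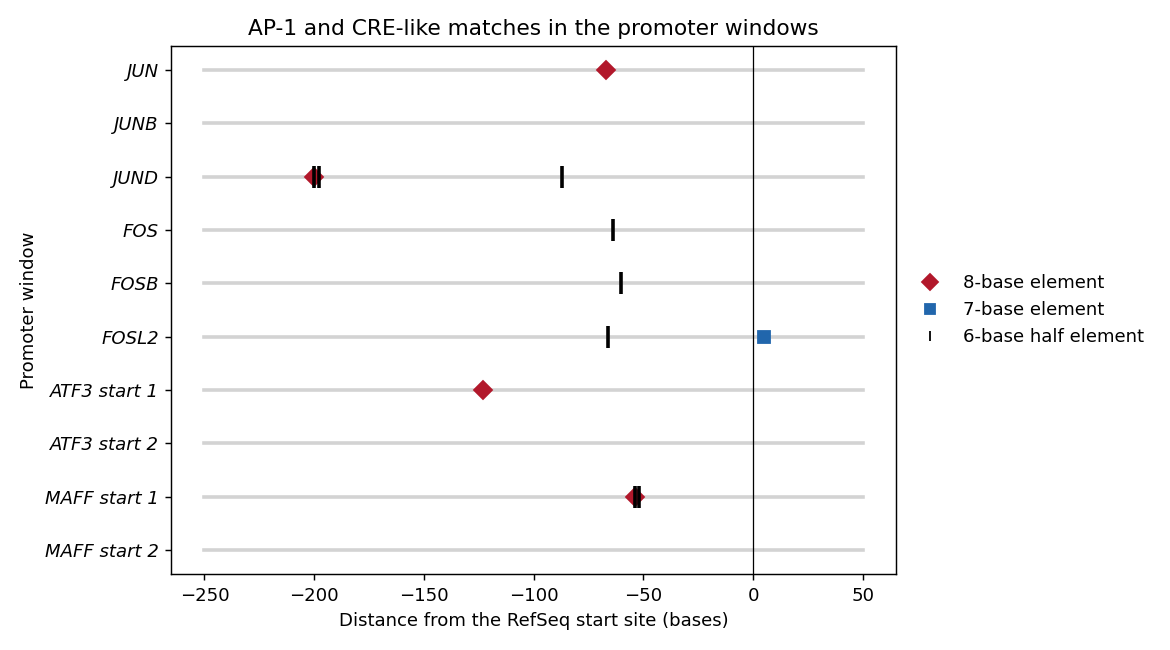
Position of motif matches, in bases from the RefSeq start site (x axis), in each of the 10 promoter windows of the AP-1 members (rows). Diamonds mark TGACNTCA, squares TGANTCA and ticks the 6-base core TGACGT. JUN, JUND, ATF3 and MAFF hold the 8-base element, and FOSL2 holds the 7-base element at position 5.

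Neratinib was compared with DMSO in each genotype, which addresses how the mRNA of AP-1 genes stood after HER2 kinase inhibition. JUN, JUND, FOSL2, FOSB, ATF3 and MAFF rose at least 2-fold in both genotypes, JUNB rose by less, and FOS fell. In KO-labelled cells 7 of the 8 tested members rose and 1 fell, and 6 of the rises were at least 2-fold. In parental cells the counts were also 7, 1 and 6. Changes passing the test were common among all 16208 genes tested, at 77.2% in KO-labelled cells (38.9% higher, 38.4% lower) and 80.7% in parental cells (41.8% higher, 38.9% lower), so a call alone says little about a member. Rises of at least 2-fold that passed the test were found in 9.42% of all genes in KO-labelled and 13% in parental cells. The libraries of the compared groups did not overlap for any of the 8 tested members in either genotype, which held for 78% of all genes in KO-labelled and 81.3% in parental cells. The median log2 fold change of the tested members was 1.61 in KO-labelled cells, against 0.02 over all genes, and 1.82 in parental cells, against 0.04. Unless another fit or setting is named, every adjusted p, here and below, was obtained with the edgeR quasi-likelihood F-test after Benjamini-Hochberg correction across the 16208 genes, with calls made below 0.05. SE are on the log2 scale and were worked back from the test, as the absolute log2 fold change over the square root of its F statistic.

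KO-labelled cells were compared with parental cells under each treatment. In neratinib 7 of the 8 tested members were higher in KO-labelled cells and none was lower, with 2, JUNB and ATF3, at least 2-fold higher. In DMSO 5 were higher, 1, MAFF, was lower and 2, FOS and FOSB, did not pass, with 2, JUN and ATF3, at least 2-fold higher. Over all genes tested, 34.7% were higher and 36.9% lower in KO-labelled cells in neratinib, and 36% were higher and 35.6% lower in DMSO. Called and at least 2-fold higher were 7.92% of genes in neratinib and 8.89% in DMSO. The libraries of the genotypes did not overlap for 7 tested members in neratinib and for 6 in DMSO, against 72.6% and 72.8% of all genes. Calls in either direction came to 71.6% of genes under each treatment. The median log2 fold change of the tested members was 0.55 in neratinib, against -0.02 over all genes, and 0.6 in DMSO, against 0. In these bulk libraries fewer cells carrying an mRNA and less of it per cell cannot be told apart.

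**Figure D2:**
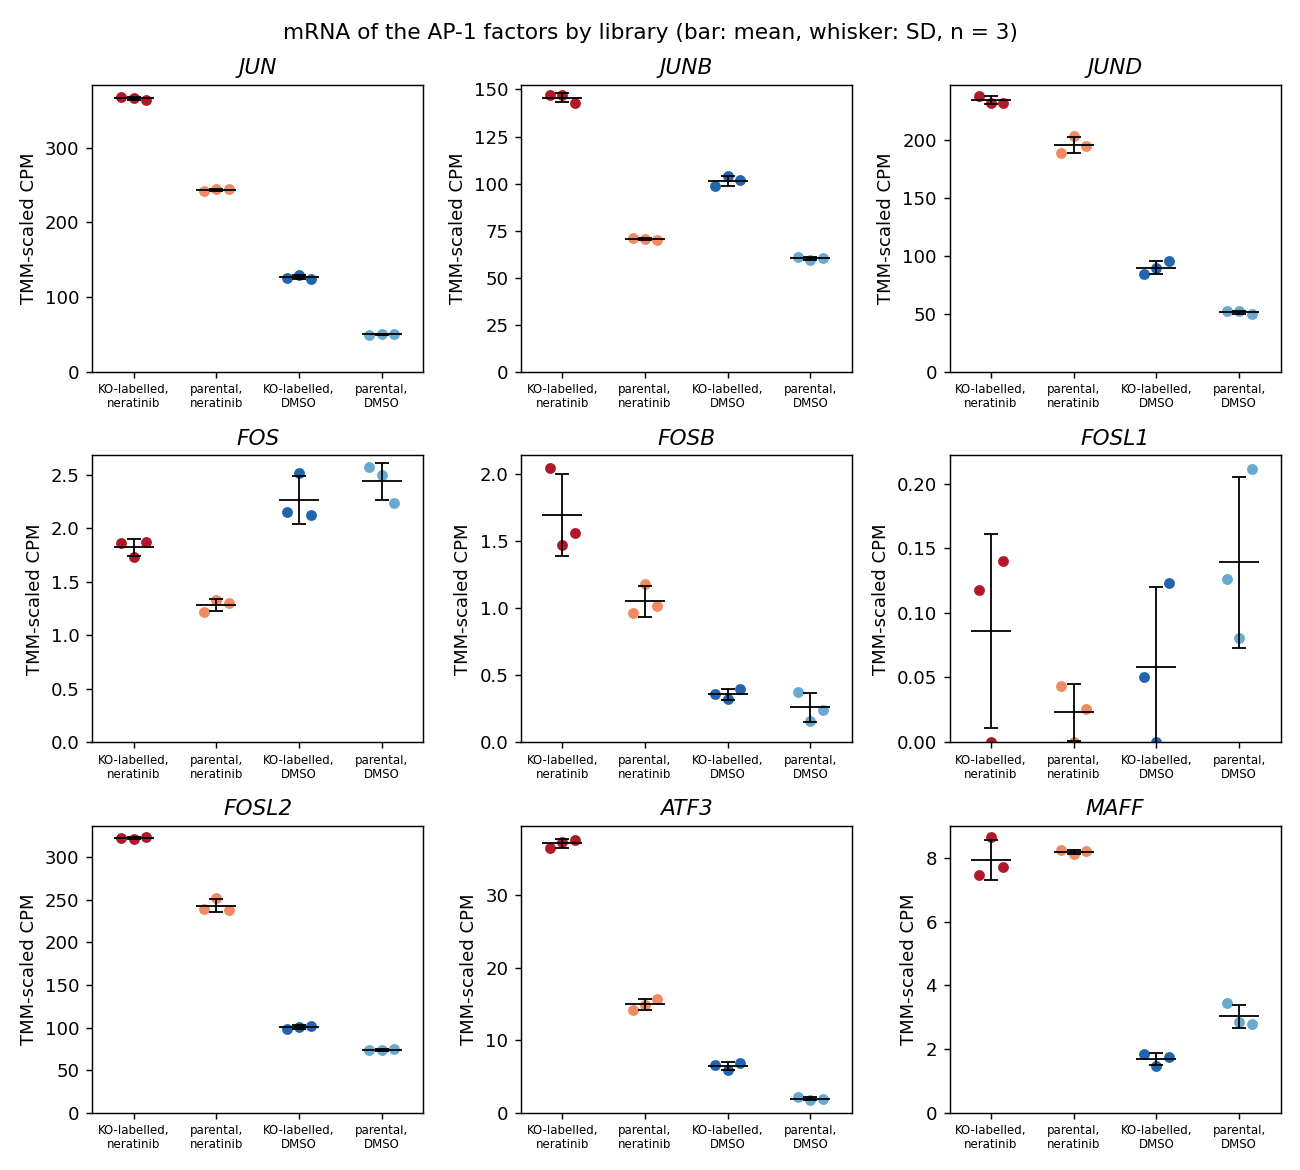
TMM-scaled CPM (y axes, linear from 0, each panel with its own range) of the 9 AP-1 members in each of the 12 libraries. Points are libraries, bars means and whiskers SD (n = 3 per group). JUN, JUND, FOSL2 and ATF3 step down from KO-labelled neratinib through parental neratinib and KO-labelled DMSO to parental DMSO with no overlap, whereas FOS is higher in the DMSO groups.

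JUN encodes c-Jun, the strongest activator of the Jun proteins and a target of JNK. The gene lies on the minus strand of chromosome 1 at 58780788 to 58784327, in GRCh38 coordinates of GENCODE 29 as for all members. JUN was at 368, 366 and 364 CPM in KO-labelled neratinib libraries and at 242, 245 and 244 CPM in parental neratinib libraries. In DMSO it was at 126, 130 and 124 CPM in KO-labelled and at 49.6, 50.5 and 50.5 CPM in parental libraries. The 4 groups stood apart, with both neratinib groups above both DMSO groups and KO-labelled above parental libraries within each treatment. The neratinib rise was 2.88-fold in KO-labelled cells (log2 fold change 1.53, SE 0.02, adjusted p = 3.87e-44) and 4.85-fold in parental cells (2.28, SE 0.023, adjusted p = 2.68e-48). KO-labelled cells had 1.34 more than parental cells on the log2 scale in DMSO (SE 0.025, adjusted p = 4.24e-38) and 0.59 more in neratinib (SE 0.019, adjusted p = 4.86e-29).

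JUND (chromosome 19, 18279760 to 18281622, minus strand) encodes a Jun protein that is expressed in most resting cells and varies less with growth signals than its relatives do. JUND was at 238, 232 and 232 CPM in KO-labelled and at 189, 203 and 195 CPM in parental neratinib libraries. In DMSO its level was 84.1, 89.7 and 95.5 CPM in KO-labelled and 52.4, 51.9 and 49.9 CPM in parental libraries. The order of groups was that of JUN, with no overlap. JUND rose 2.61-fold with neratinib in KO-labelled cells (log2 fold change 1.38, SE 0.028, adjusted p = 3.95e-37) and 3.8-fold in parental cells (1.93, SE 0.03, adjusted p = 3.44e-41). The genotypes differed by 0.8 on the log2 scale in DMSO (SE 0.033, adjusted p = 7.65e-25) and by 0.26 in neratinib (SE 0.025, adjusted p = 2.89e-12, or 0.0652 with a coefficient of variation of 10%), with KO-labelled cells higher in both.

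JUNB, on chromosome 19 from 12791496 to 12793315 on the plus strand, encodes a weaker activator that can oppose c-Jun at its target sites. It was at 147, 147 and 143 CPM in KO-labelled and at 70.8, 70.3 and 69.9 CPM in parental neratinib libraries. DMSO libraries had 98.6, 104 and 102 CPM in KO-labelled and 61.1, 59.2 and 60.4 CPM in parental cells. Unlike JUN and JUND, JUNB was ordered by genotype first, since both KO-labelled groups stood above both parental groups, with no overlap. Its rise with neratinib was 1.44-fold in KO-labelled cells (log2 fold change 0.52, SE 0.024, adjusted p = 1.12e-23) and 1.17-fold in parental cells (0.22, SE 0.028, adjusted p = 9.88e-10, or 0.0922 with a coefficient of variation of 10%). Between genotypes it was higher in KO-labelled cells by 1.05 in neratinib (SE 0.025, adjusted p = 6.2e-34) and by 0.75 in DMSO (SE 0.026, adjusted p = 1.87e-27) on the log2 scale. JUNB exons share 259 bases with HOOK2 on the opposite strand, 14.2% of the exon length of JUNB, and the strand setting of the counting is not given in the sources used here. The log2 difference of HOOK2 between KO-labelled and parental cells was -0.3 in neratinib and -0.19 in DMSO, and its log2 fold change with neratinib was -0.04 in KO-labelled and 0.07 in parental cells. The part of HOOK2 reads in the JUNB values was not tested.

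FOSL2, on chromosome 2 from 28392448 to 28417312 on the plus strand, encodes FRA2, a Fos protein that lacks the strong activation domain of FOS and is made later and for longer. FOSL2 was at 323, 321 and 324 CPM in KO-labelled and at 239, 252 and 238 CPM in parental neratinib libraries. In DMSO libraries it was at 98.1, 101 and 102 CPM in KO-labelled and at 73.4, 73.4 and 75.3 CPM in parental cells. All 4 groups stood apart in the order seen for JUN. With neratinib it rose 3.22-fold in KO-labelled cells (log2 fold change 1.69, SE 0.022, adjusted p = 4.98e-44) and 3.28-fold in parental cells (1.71, SE 0.023, adjusted p = 1.54e-43). The excess in KO-labelled cells was 0.41 in neratinib (SE 0.02, adjusted p = 4.76e-22) and 0.44 in DMSO (SE 0.026, adjusted p = 1.56e-19) on the log2 scale.

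FOS, the prototype immediate-early gene, lies on chromosome 14 from 75278774 to 75282230 on the plus strand, and was near the bottom of the measured range. FOS had 1.86, 1.73 and 1.87 CPM in KO-labelled and 1.22, 1.33 and 1.3 CPM in parental neratinib libraries, from 63, 73 and 67 counts and from 56, 44 and 50 counts. In DMSO it had 2.15, 2.52 and 2.12 CPM in KO-labelled and 2.57, 2.5 and 2.24 CPM in parental libraries, from 85, 111 and 69 counts and from 102, 93 and 85 counts. The 2 DMSO groups overlapped, both neratinib groups lay below them, and the lowest level was in parental neratinib libraries. FOS fell with neratinib by 0.93 on the log2 scale in parental cells (SE 0.145, adjusted p = 1.82e-07). In KO-labelled cells its log2 fold change was -0.33 (SE 0.137, adjusted p = 0.0274). That smaller fall lost its call without replicate 2 of the KO-labelled DMSO group (-0.24, adjusted p = 0.168), without replicate 2 of the KO-labelled neratinib group (-0.29, adjusted p = 0.0919), with scaling by library totals (-0.27, adjusted p = 0.065) and in DESeq2 (-0.33, adjusted p = 0.12). Between genotypes FOS was higher in KO-labelled cells in neratinib (0.51, SE 0.155, adjusted p = 0.00376), and in DMSO the log2 difference was -0.1 (SE 0.127, adjusted p = 0.514).

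FOSB, on chromosome 19 from 45467995 to 45475179 on the plus strand, encodes an inducible Fos protein with a long-lived truncated form. It was sparse, at 69, 62 and 56 counts in KO-labelled and 44, 39 and 39 counts in parental neratinib libraries, and at 14, 14 and 13 counts in KO-labelled and 15, 6 and 9 counts in parental DMSO libraries. Those counts correspond to 2.04, 1.47 and 1.56 CPM in KO-labelled and 0.96, 1.18 and 1.01 CPM in parental neratinib libraries, and to 0.355, 0.318 and 0.399 CPM in KO-labelled and 0.377, 0.161 and 0.238 CPM in parental DMSO libraries. Both neratinib groups stood above both DMSO groups, which overlapped each other. The rise with neratinib was 4.7-fold in KO-labelled cells (log2 fold change 2.23, SE 0.237, adjusted p = 1.79e-11) and 3.95-fold in parental cells (1.98, SE 0.28, adjusted p = 2.33e-08). FOSB was 0.69 higher in KO-labelled cells in neratinib (SE 0.186, adjusted p = 0.00116), and in DMSO the difference of 0.43 did not pass the test (SE 0.359, adjusted p = 0.282).

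FOSL1 (chromosome 11, 65892049 to 65900573, minus strand) encodes FRA1, the Fos protein most closely tied to ERK signalling and to mesenchymal breast cancer lines. Its counts were 4, 0 and 5 in KO-labelled and 2, 0 and 1 in parental neratinib libraries, and 2, 0 and 4 in KO-labelled and 5, 3 and 8 in parental DMSO libraries. Groups next to each other in level overlapped, while every parental neratinib library was below every parental DMSO library, and 3.64% of its 50-base stretches also occur in the pseudogene FOSL1P1. Summed over libraries, the ratio of neratinib to DMSO was 1.56 in KO-labelled cells (9 against 6 counts, exact 95% interval 0.494 to 5.31) and 0.183 in parental cells (3 against 16 counts, 0.0342 to 0.641). The ratio of KO-labelled to parental cells was 3.15 in neratinib (9 against 3 counts, 0.786 to 18.1) and 0.371 in DMSO (6 against 16 counts, 0.119 to 0.999). These intervals cover counting error only.

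ATF3 encodes a stress-induced factor that represses as a pair with itself and can activate when paired with Jun proteins. The gene lies on chromosome 1 from 212565334 to 212620777 on the plus strand. ATF3 was at 36.5, 37.3 and 37.7 CPM in KO-labelled and at 14.2, 14.9 and 15.7 CPM in parental neratinib libraries. DMSO levels were 6.64, 5.82 and 6.84 CPM in KO-labelled and 2.11, 1.77 and 1.9 CPM in parental libraries. No groups overlapped, and every step between groups was of at least 2-fold. ATF3 rose 5.81-fold with neratinib in KO-labelled cells (log2 fold change 2.54, SE 0.056, adjusted p = 1.55e-35) and 7.7-fold in parental cells (2.94, SE 0.086, adjusted p = 3.64e-31). ATF3 was higher in KO-labelled cells by 1.32 in neratinib (SE 0.047, adjusted p = 4.38e-27) and by 1.72 in DMSO (SE 0.103, adjusted p = 3.64e-19) on the log2 scale. In both genotypes its estimated rise with neratinib was the largest of the 8 tested members.

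MAFF, on chromosome 22 from 38200767 to 38216511 on the plus strand, encodes a small Maf protein without an activation domain that pairs with CNC factors such as NRF2. In neratinib libraries it was at 7.46, 8.65 and 7.71 CPM in KO-labelled and at 8.25, 8.13 and 8.23 CPM in parental cells. In DMSO libraries it was at 1.83, 1.46 and 1.75 CPM in KO-labelled and at 3.45, 2.85 and 2.8 CPM in parental cells. The neratinib groups overlapped, and in DMSO every KO-labelled library was below every parental one. MAFF rose 4.79-fold with neratinib in KO-labelled cells (log2 fold change 2.26, SE 0.107, adjusted p = 5.5e-23) and 2.7-fold in parental cells (1.43, SE 0.093, adjusted p = 2.74e-18). Among the tested members MAFF was the one found lower in KO-labelled cells in DMSO, with a log2 difference of -0.87 (SE 0.132, adjusted p = 1.71e-07). In neratinib its genotype difference was -0.04 (SE 0.076, adjusted p = 0.642).

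**Figure D3:**
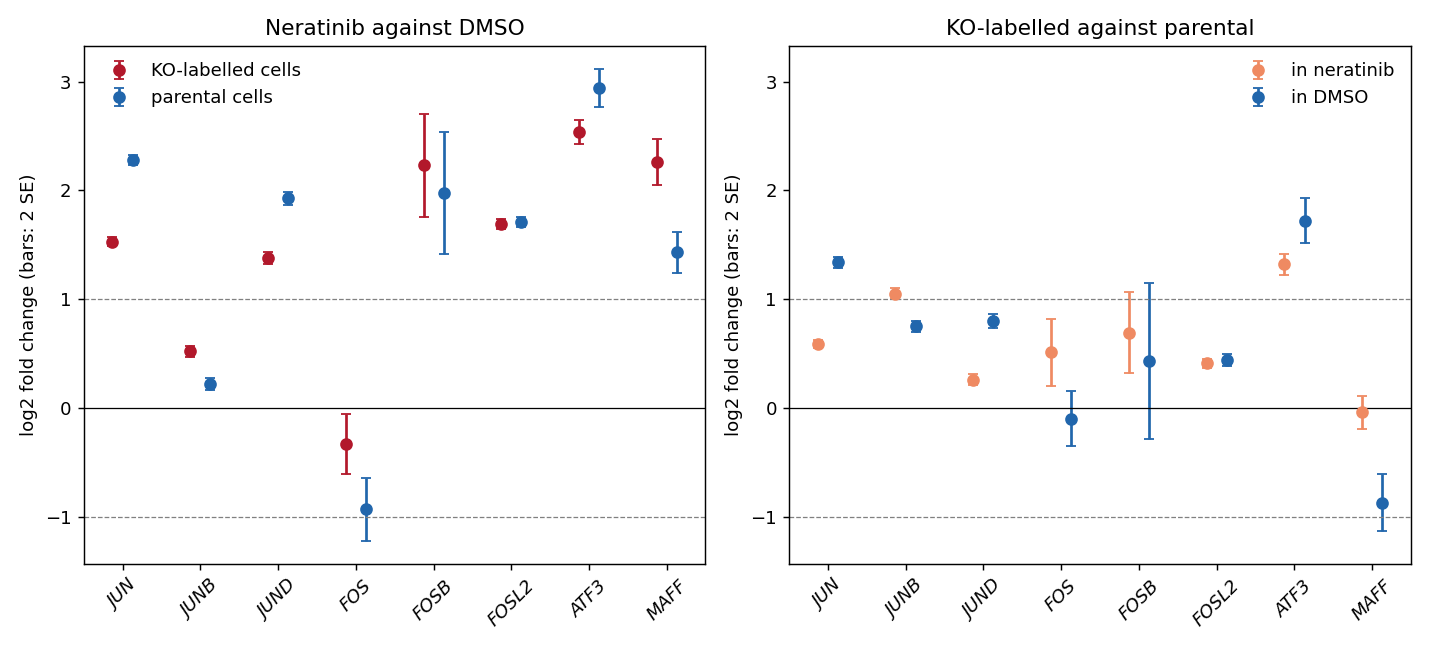
Log2 fold changes (y axes) of the 8 tested AP-1 members for neratinib against DMSO (left) and for KO-labelled against parental cells (right), with bars of 2 SE and dashed lines at 2-fold. JUN and JUND rise by a smaller fold with neratinib in KO-labelled cells (1.53 and 1.38) than in parental cells (2.28 and 1.93), and MAFF by a larger fold (2.26 against 1.43).

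The neratinib response was then compared between genotypes by the interaction, the log2 fold change in KO-labelled cells minus that in parental cells. It passed for 6 of the 8 tested members, 3 with a positive and 3 with a negative value, where 46.1% of all genes tested passed, 21.5% with a positive and 24.6% with a negative value. JUN (-0.75, SE 0.031, adjusted p = 9.82e-24), JUND (-0.54, SE 0.042, adjusted p = 1.47e-14) and ATF3 (-0.41, SE 0.119, adjusted p = 0.00459) rose by a smaller fold in KO-labelled cells. Their DMSO levels were higher in those cells. In CPM, ATF3 went from 6.434 to 37.15 in KO-labelled and from 1.929 to 14.93 in parental cells. In the same order JUN went from 126.9 to 365.7 and from 50.19 to 243.5, and JUND from 89.77 to 233.9 and from 51.42 to 195.6. The steps of JUN and ATF3 in CPM were thus larger in KO-labelled cells, and those of JUND about equal. MAFF (0.83, SE 0.153, adjusted p = 1.68e-05) and JUNB (0.3, SE 0.037, adjusted p = 4.03e-09) rose by a larger fold in KO-labelled cells. FOS fell less there (0.6, SE 0.201, adjusted p = 0.0127), a call that DESeq2 did not make (0.63, adjusted p = 0.0514). With the coefficient of variation set to 10% for all genes, a setting added after seeing the data, the calls of JUNB (adjusted p = 0.311), ATF3 (0.214) and FOS (0.134) were lost and those of JUN, JUND and MAFF were kept. For FOSL2 the interaction was -0.03 (SE 0.033, adjusted p = 0.51) and for FOSB 0.25 (SE 0.417, adjusted p = 0.657). No member had an interaction of 2-fold or more, while 3.27% of all genes passed the test at that size. The interaction shares its libraries with the 4 comparisons above and is not separate evidence.

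Levels of different genes were compared per kilobase of exon, as TMM-scaled CPM per kb. In neratinib JUND was highest, at 126 CPM per kb in KO-labelled and 105 in parental cells, followed by JUN at 103 and 68.8 and by JUNB at 80.2 and 38.6. In DMSO JUNB was highest, at 55.8 CPM per kb in KO-labelled and 33.1 in parental cells, followed by JUND at 48.2 and 27.6 and by JUN at 35.9 and 14.2. The overlap of JUNB with HOOK2 exons may affect its level here and in the sums below, which was not tested. FOSL2 ranked below the 3 Jun genes and above the other members in every group, and was the only Fos gene above 1 CPM per kb, at 45.1 in KO-labelled and 33.9 in parental cells in neratinib. ATF3 was at 9.2 CPM per kb in KO-labelled and 3.7 in parental cells in neratinib, and at 1.59 and 0.477 in DMSO. MAFF, FOS and FOSB lay between 0.0466 and 1.46 CPM per kb in all groups.

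Summed over the 3 Jun genes, the mRNA per kilobase was 309 ± 3.24 in KO-labelled and 212 ± 3.85 in parental neratinib cells, and 140 ± 4.2 in KO-labelled and 74.9 ± 0.771 in parental DMSO cells (SD, n = 3 each). The makeup of that sum differed as well. JUN held 33.4% of it in KO-labelled and 32.4% in parental neratinib cells, and 25.7% in KO-labelled and 18.9% in parental DMSO cells. JUNB held 25.9% in KO-labelled and 18.2% in parental neratinib cells, against 39.9% in KO-labelled and 44.2% in parental DMSO cells. The JUND share was highest in parental neratinib cells, at 49.4%, and was 40.6% in KO-labelled neratinib, 34.4% in KO-labelled DMSO and 36.9% in parental DMSO cells. The Fos family sum was smaller, at 46.0 ± 0.284 in KO-labelled and 34.5 ± 1.09 in parental neratinib cells, and 14.8 ± 0.316 in KO-labelled and 11.2 ± 0.135 in parental DMSO cells. FOSL2 made up 98.0% of it in KO-labelled and 98.3% in parental neratinib cells, and 94.6% in KO-labelled and 92.2% in parental DMSO cells. FOS held 1.22% in KO-labelled and 1.15% in parental neratinib cells, against 4.72% in KO-labelled and 6.71% in parental DMSO cells. The Fos shares rest on the exon length used, and that of FOS would be larger per kb of the longest transcript. These are shares of mRNA and say nothing of protein.

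**Figure D4:**
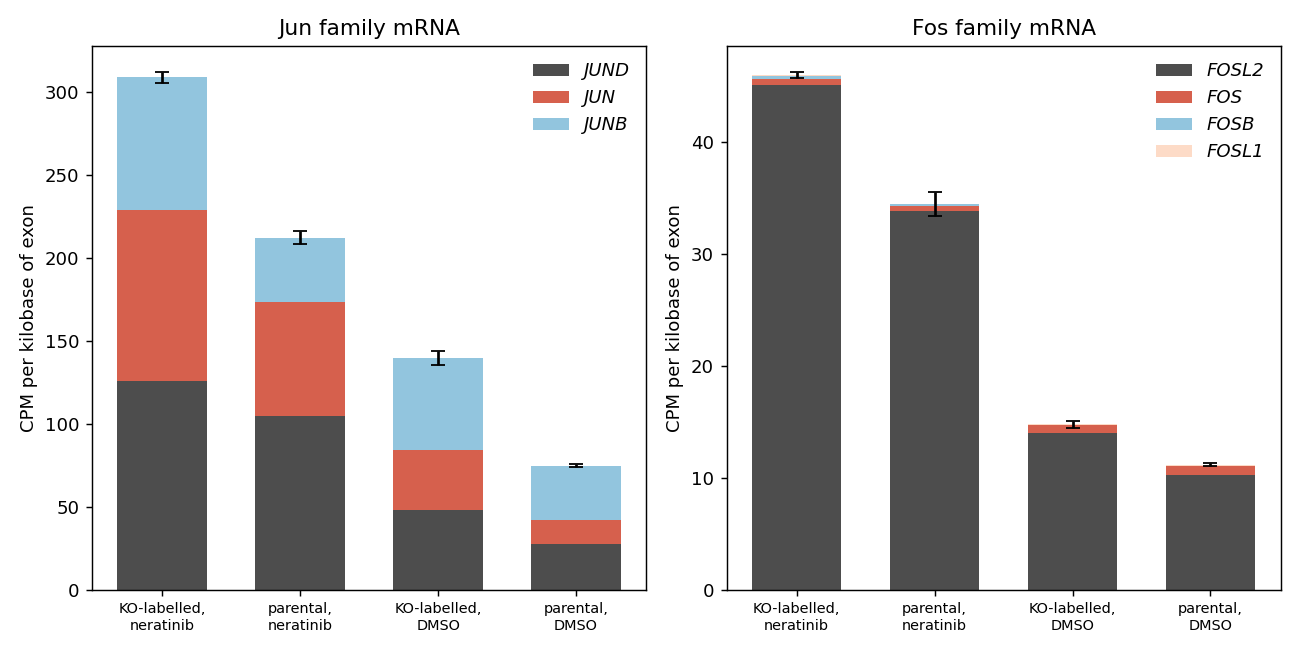
Summed mRNA of the Jun family (left) and the Fos family (right) in TMM-scaled CPM per kilobase of exon (y axes, linear from 0), stacked by gene, as group means with the SD of the sum (n = 3). The Jun sum is 309 in KO-labelled neratinib and 74.9 in parental DMSO cells, and FOSL2 holds 92.2% to 98.3% of the Fos sum.

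Across the 12 libraries the members fell into patterns that can be given as correlations of log2 CPM, with no p, since the 12 points are 4 groups of 3 and share their treatment and genotype. JUN, JUND, FOSL2, FOSB and ATF3 moved together, with Pearson's r between 0.929 and 0.991 for every pair. JUNB was less like them, with r between 0.586 and 0.761. MAFF had r between 0.692 and 0.859 with those 5 genes and 0.178 with JUNB. FOS ran against the rest apart from JUNB, with r between -0.781 and -0.633, and had r = -0.007 with JUNB.

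Among genes with a mean of at least 1 CPM, the 3 most like each tested member over the 12 libraries were as follows, again as a description. For JUN they were RHOU (r = 0.9996), NDRG1 (0.9987) and CYP4B1 (0.9984). FOSL2 was most like KLHDC10 (0.9993), GRB7 (0.9989), an adaptor gene of the HER2 amplicon, and SEMA4B (0.9986). Those most like JUND were KHNYN (0.9985), MKRN1 (0.9983) and ALDH6A1 (0.9982), and those most like ATF3 were KCNG1 (0.9987), USP53 (0.9984) and TCAF1 (0.9983). JUNB was nearest KIFC2 (0.9976), and MAFF nearest ZBTB38 (0.9915) after WASH7P (0.9927), which has near-identical copies and is uncertain. The sparse FOS was nearest RAC3 (0.9900) and TBL1X (0.9868), and the sparse FOSB nearest CENPF (0.9892) and UBOX5 (0.9868). No member was among the nearest genes of another member.

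The other genes of the AP-1 system were described as lists, beside the same counts over all genes tested given above. The partner list held 23 further bZIP genes, of which 21 were tested. With neratinib 8 rose and 12 fell in KO-labelled cells (median log2 fold change -0.2), and 10 rose and 7 fell in parental cells (0.05). CREB5, a CRE-binding factor that pairs with Jun proteins, rose by 3.23 in KO-labelled and 2.56 in parental cells on the log2 scale, to 131.6 CPM in KO-labelled and 59.37 in parental neratinib cells. MAF, a large Maf factor, rose by 1.6 in KO-labelled and 2.91 in parental cells. BACH1, a repressor that pairs with small Maf proteins, rose by 1.32 in KO-labelled and by 1.02 in parental cells. JDP2, which represses AP-1 sites, fell, with log2 fold changes of -2.46 in KO-labelled and -1.64 in parental cells. CEBPB fell as well (-1.4 in KO-labelled and -0.58 in parental cells). Between genotypes 8 partners were higher and 9 lower in KO-labelled cells in neratinib (median -0.08), and 12 were higher and 3 lower in DMSO (0.21). MAF was higher in KO-labelled cells by 0.59 in neratinib and 1.9 in DMSO.

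Of 28 genes for the kinases and factors that act on AP-1 genes and proteins, 11 rose and 13 fell with neratinib in KO-labelled cells (median -0.04), and 9 rose and 14 fell in parental cells (-0.11). MAP2K7, a kinase that activates JNK, rose by 0.93 in KO-labelled and by 1 in parental cells on the log2 scale. The JNK gene MAPK8 rose by 0.52 in KO-labelled and by 0.79 in parental cells, whereas the JNK gene MAPK9 fell, with log2 fold changes of -0.71 in KO-labelled and -1.18 in parental cells. ELK3, an SRF partner factor, fell, with log2 fold changes of -1.65 in KO-labelled and -2.56 in parental cells, and was at most at 3.274 CPM in any group. Between genotypes 17 of the 28 were higher and 7 lower in KO-labelled cells in neratinib (median 0.14), and 15 were higher and 8 lower in DMSO (0.12). MAPK10, another JNK gene, was higher in KO-labelled cells by 0.76 in neratinib and by 0.88 in DMSO, and MAPK3, which encodes ERK1, was lower, with log2 differences of -0.31 in neratinib and -0.66 in DMSO.

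The 9 genes for mRNA decay and protein turnover of AP-1 products were also mixed. With neratinib 4 rose and 5 fell in KO-labelled cells (median -0.06), and 3 rose and 6 fell in parental cells (-0.22). ZFP36, whose protein speeds the decay of mRNAs such as FOS, rose by 0.78 in KO-labelled and by 0.67 in parental cells on the log2 scale. FBXW7, a ubiquitin ligase subunit that targets c-Jun, fell, with log2 fold changes of -0.71 in KO-labelled and -1.6 in parental cells. Between genotypes 4 were higher and 4 lower in KO-labelled cells in neratinib (median -0.03), and 3 were higher and 5 lower in DMSO (-0.17). FBXW7 was 0.15 higher in KO-labelled cells in neratinib and was lower there in DMSO, with a log2 difference of -0.74.

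Of 33 genes described as AP-1 targets in other cells, 20 were tested. The other 13, among them MMP1, MMP3, MMP9, PLAU, IL6 and CXCL8, were too sparse. With neratinib 7 targets rose and 9 fell in KO-labelled cells (median -0.1), and 5 rose and 9 fell in parental cells (0). MMP13, a collagenase gene, rose by 2.83 in KO-labelled and by 2.99 in parental cells on the log2 scale, to 6.985 CPM in KO-labelled and 4.485 CPM in parental cells. LAMB3, a laminin chain gene, rose by 0.72 in KO-labelled and 0.85 in parental cells. CCND1, the cyclin D1 gene, fell, with log2 fold changes of -3.21 in KO-labelled and -3.74 in parental cells, to 25.33 CPM in KO-labelled and 29.51 CPM in parental cells. Between genotypes 9 targets were higher and 6 lower in KO-labelled cells in neratinib (median 0.22), and 10 were higher and 7 lower in DMSO (0.14). LAMB3 was higher in KO-labelled cells by 1.45 in neratinib and by 1.57 in DMSO, and TIMP1, a protease inhibitor gene, was lower, with log2 differences of -1.83 in neratinib and -2.53 in DMSO. TIMP1 was sparse, at 0.828 CPM in KO-labelled and 2.892 CPM in parental neratinib cells. In DMSO it was at 1.1 CPM in KO-labelled and 6.363 CPM in parental cells.

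**Figure D5:**
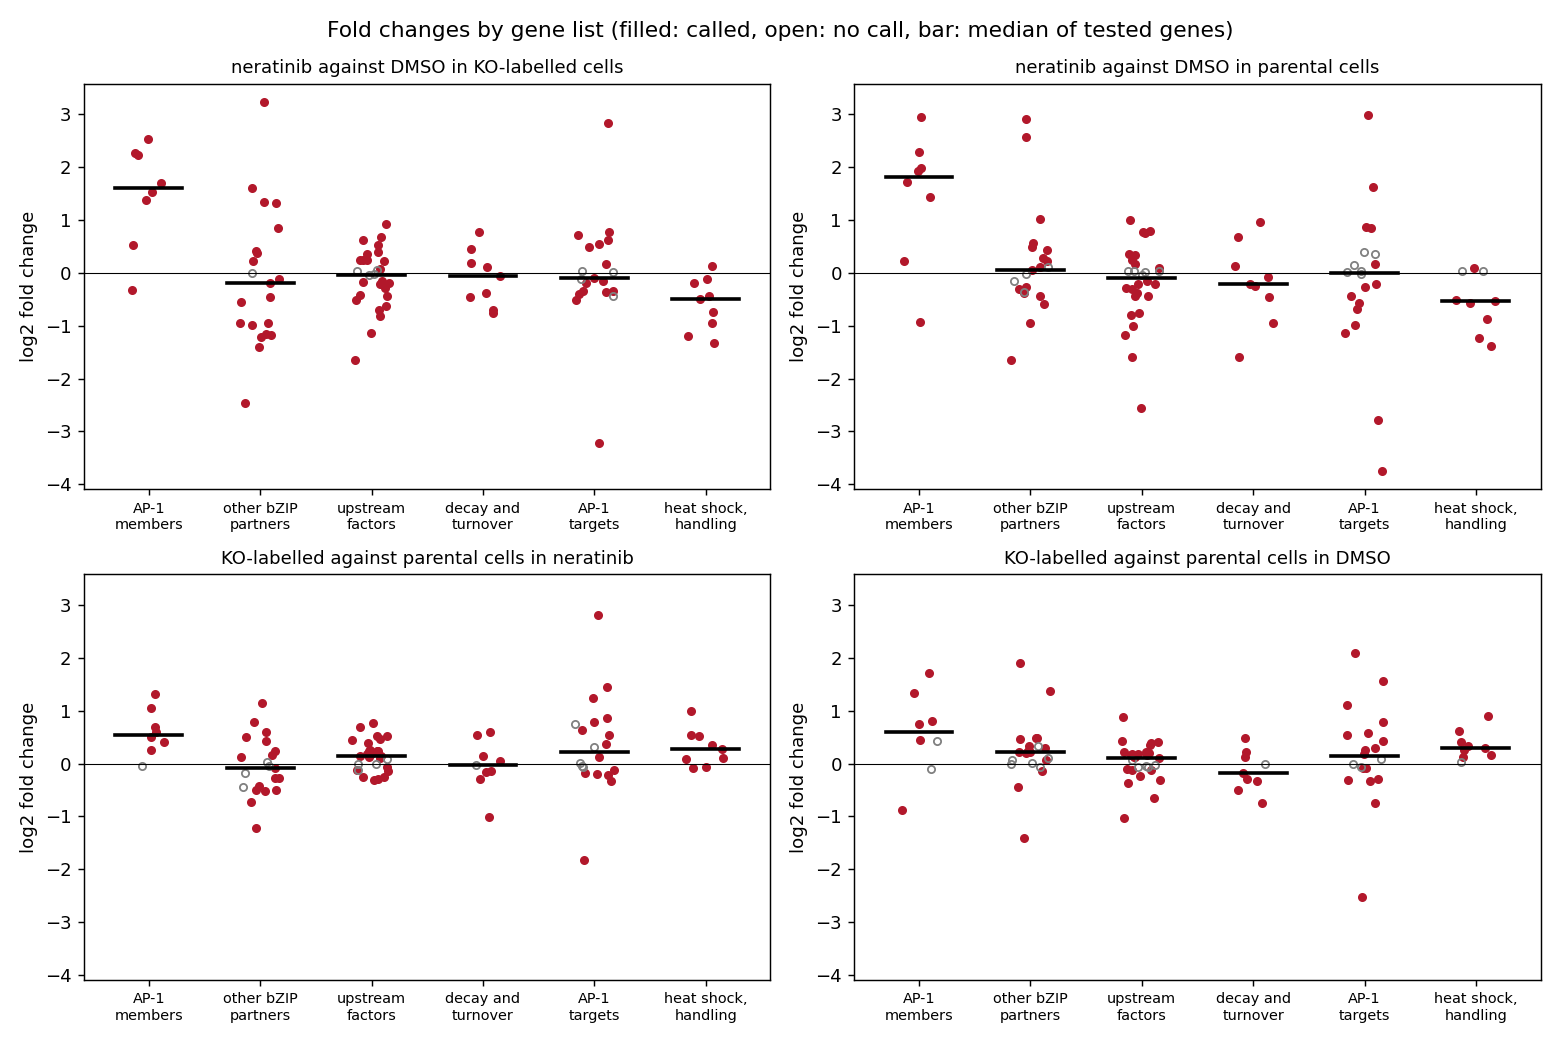
Log2 fold changes (y axes) of the tested genes of each list (x axis) in the 4 comparisons, with filled points for genes passing the test, open points for the others and bars for medians. The median of the AP-1 members with neratinib is 1.61 in KO-labelled and 1.82 in parental cells, while those of the partner, upstream, decay and target lists lie between -0.22 and 0.05. That of the heat-shock list is -0.49 in KO-labelled and -0.53 in parental cells.

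Heat-shock genes were followed because AP-1 mRNAs also respond to handling. Of 9 such genes 1 rose and 8 fell with neratinib in KO-labelled cells (median log2 fold change -0.49), and 1 rose and 6 fell in parental cells (-0.53). Their summed level was 7425 to 7597 CPM in KO-labelled and 6079 to 6143 in parental neratinib libraries, and 12168 to 12408 in KO-labelled and 9767 to 9928 in parental DMSO libraries. Between genotypes 7 were higher and 2 lower in KO-labelled cells in neratinib, and 8 were higher and 0 lower in DMSO. HSPA1A and HSPA1B, which share most of their sequence, are counted separately here and are uncertain. The share of counts from mitochondrially encoded genes was 5.21% ± 0.0815 in KO-labelled and 4.51% ± 0.372 in parental neratinib libraries, against 2.74% ± 0.242 in DMSO libraries of KO-labelled and 2.97% ± 0.163 of parental cells (SD, n = 3 each). The part of either in the differences of the AP-1 members was not tested.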

How the data were processed

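Messenger RNA of 12 BT474 libraries (TruSeq RNA v2, single reads, per the labels' protocols) was analysed from gene-level read counts, deposited by the authors as whole numbers without normalization. FastQC 0.11.7, STAR 2.7.9, edgeR 3.40.2 and GRCh38 are named per the submitters' processing notes, while the counter, annotation and strand setting are not given in the sources used here. Of 28395 lines, 581 named no gene and were omitted. They took 0.088% to 0.124% of each library. Replicates differed by more than sampling noise (chi-square per degree of freedom 1.37 to 3.57). Genes were filtered with filterByExpr (minimum count 10), which left 16208, given TMM scale factors (trimmed mean of M values), and fitted with a mean per group to all libraries by edgeR 4.0.16's quasi-likelihood test in R 4.3.3 (8 residual degrees of freedom, alpha 0.05). The script was tested on simulated data. CPM are edgeR's counts per unit of TMM-scaled library size, and levels per kilobase use the exon union of GENCODE 29. Replicates varied little (common coefficient of variation 1.86%), and small differences therefore passed.

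The members are named throughout. From each other list the rule named, per comparison, the 3 called genes with the largest change in each direction with at least 1 CPM in either group, of which the text gives some, and for each tested member the 3 genes most like it (log2 CPM with prior count 2). The members and lists were chosen with earlier results of these data known. Alternatives were DESeq2 1.42.0, other scalings, other filters, fits to only the groups compared, a replicate block, leaving out each library in turn and, chosen after seeing the data, a fixed gene-wise coefficient of variation (10%).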

Additional observations from a re-analysis of the deposited data

Results flagged for a closer look

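The results below are those whose neratinib response differed between the genotypes by the interaction test, given as the log2 fold change in KO-labelled cells minus that in parental cells. All passed in edgeR after Benjamini-Hochberg adjustment, as did 46.1% of all genes tested.

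Among the members the values were 0.83 for MAFF, 0.6 for FOS, 0.3 for JUNB, -0.41 for ATF3, -0.54 for JUND and -0.75 for JUN.

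Among the partner genes they were 1.23 for BACH2, 0.67 for CREB5 and 0.41 for MAFK, and -0.84 for DDIT3, -0.9 for ATF4 and -1.31 for MAF. BACH2 and MAF were below 10 CPM in every group. Among kinases and factors acting on AP-1 they were 0.91 for ELK3, 0.48 for MAPK9 and 0.46 for MAP3K5, and -0.12 for GSK3B, -0.14 for RPS6KA5 and -0.27 for MAPK8. Among decay and turnover genes they were 0.89 for FBXW7, 0.34 for ZFP36L1 and 0.18 for HNRNPD, and -0.15 for COP1 and -0.51 for ZFP36L2. Among target genes they were 2.28 for IVL, 0.7 for TIMP1 and 0.64 for ITGB4, and -0.14 for NQO1, -0.24 for MT2A and -0.31 for CD44. IVL was at 3.225 CPM in KO-labelled and 0.4387 CPM in parental neratinib cells. ELK3, MAP3K5, TIMP1 and IVL were also below 10 CPM in every group. Among heat-shock genes they were 0.13 for HSPD1, 0.09 for HSPB1 and 0.07 for HSPA8, and -0.21 for DNAJB1, -0.22 for HSPA1A and -0.23 for HSPA1B.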

How the results depend on the processing

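The 5 comparisons of each tested member were recomputed under 20 alternatives, of which 12 left out a library each. FOS and FOSB were too low for the filter at a mean of 5 CPM and have no values under it. Of the gene values obtained, 769 kept direction and call, 11 lost a call, among them those of FOS given above, and 2 changed sign without a call in either fit. Over the settings that leave out a library, the genotype difference of MAFF in neratinib lay between -0.11 and 0.0, the highest without replicate 1 of KO-labelled neratinib, and the interaction of FOSB between -0.13 and 0.49, the lowest without replicate 1 of parental DMSO.

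With a mean of at least 5 CPM required, genes called at least 2-fold numbered 991 for neratinib in KO-labelled cells (2385 otherwise), 1457 in parental cells (3372), 514 between genotypes in neratinib (1810), 549 in DMSO (2002) and 101 for the interaction (530). With the coefficient of variation set to 10% throughout, a setting added once the data had been seen, 6950 genes were called between genotypes in neratinib (11605 otherwise), 6974 in DMSO (11609) and 1436 for the interaction (7468). Of the members 3, JUN, JUND and MAFF, then passed the interaction, against 6 before. Under that setting the calls of JUNB for neratinib in parental cells (adjusted p = 0.0922) and of JUND between genotypes in neratinib (adjusted p = 0.0652) were also lost, as was that of FOS for neratinib in KO-labelled cells (adjusted p = 0.109). These fits differ in the genes tested and in the spread assumed.

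Replicate numbers are shared between groups. To see whether they mark pairs, the group mean of each gene was taken off its log2 CPM, over genes with a mean of at least 1 CPM. The remaining deviations of same-numbered libraries of compared groups had correlations of -0.063 to 0.058, none over 0.1, so the numbers were not taken as pairs. With the replicate block 8 members were called for neratinib in each genotype, 7 between genotypes in neratinib, 6 in DMSO and 6 for the interaction, as without it. FOSL1 passed in parental cells when no filter was applied (log2 fold change -2.34, adjusted p = 0.0171) but not in DESeq2 (-2.52, adjusted p = 0.0612). The fit to only the groups compared was not run for the interaction. Depth limits FOS, FOSB, MAFF and FOSL1 most.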
